A study of Mus musculus with 2 samples.

Results

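The desmosomal cadherins and corneodesmosin are the adhesion proteins of the cell-cell junctions that hold the epidermis together. They were measured here in the skin of newborn mice with and without Pnpla1, which encodes a lipid-metabolizing enzyme needed for the acylceramides of the skin barrier. The 10 genes were the desmogleins Dsg1a, Dsg1b, Dsg1c, Dsg2, Dsg3 and Dsg4, the desmocollins Dsc1, Dsc2 and Dsc3, and corneodesmosin, Cdsn. They were taken by gene name from the array annotation and had 16 probes, 13 of them well above background on both arrays, of 39429 probes for 30133 genes on the array. Total RNA from Pnpla1+/+ skin and from Pnpla1-/- skin, both on a C57BL/6N background and both at postnatal day 0, was labelled with Cy3 and hybridized to 1 single-colour Agilent mouse array per genotype. Each array held RNA pooled in equal amounts from 6 animals, so the pool gave 1 value per genotype, the spread between animals was not measured, and no test was possible. The knockouts carried a Knockout Mouse Project allele, tm1a, from which the reporter and selection cassettes had been excised with flippase, and the controls were wild-type littermates from heterozygous crosses. The gene was disrupted in the whole animal and not in keratinocytes alone. The labels name the tissue as skin and the series description as epidermis, and markers of fibroblasts and muscle were well above background on both arrays beside those of keratinocytes.

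The Pnpla1 probe, at chr17:29026908-29026967 on build mm9, gave 578.6 units of intensity with wild-type RNA and 113.6 with knockout RNA, well above background on both arrays. It was 4.19-fold lower in the knockout (log2 difference -2.07 ± 0.22), the direction its label gives. Alleles of this design often keep their exons after flippase until Cre recombinase acts, and the sources used here call the mice null but do not say which exons, if any, are missing. It is therefore not known how this probe lies to the changed part of the gene, and the genotype is used as labelled. By quantitative PCR and immunohistochemistry, the paper reports that Pnpla1 mRNA and protein were absent from knockout skin. Intensities are given below as deposited. Every fold and log2 difference was taken after each intensity had been divided by the 75th percentile of its array, 2108 for Pnpla1+/+ and 1734 for Pnpla1-/-. The ± after a difference is the error that the scanner software assigns to the spots and covers neither labelling nor animals.

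Desmosomes join neighbouring keratinocytes through desmogleins and desmocollins, calcium-dependent cadherins whose outer domains bind across the gap and whose tails attach, through plakoglobin, plakophilins and desmoplakin, to keratin filaments. In epidermis, Dsg3 and Dsc3 are known from the lower layers and Dsg1 and Dsc1 from the upper ones, Dsg2 and Dsc2 are widespread in simple epithelia, and Dsg4 is best known from the hair follicle. In the outermost layers corneodesmosin is built into the junction, now called the corneodesmosome, and kallikrein proteases cleave it together with Dsg1 and Dsc1 when cells are shed. Humans have a single DSG1 gene, whereas mice have the 3 copies Dsg1a, Dsg1b and Dsg1c.

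Dsg3, Dsg1b, Dsc1 and Dsg1c had higher signals in Pnpla1-/- skin, Dsg4 a lower one, and the other genes differed less. Of the 10 genes, 4 (40%) were at least 2-fold higher, where 6.68% of the 22374 genes with a difference or a bound were. Dsg4 alone (10%) was at least 2-fold lower, where 3.04% of all genes were. The other 5, Dsg1a, Dsg2, Dsc2, Dsc3 and Cdsn, differed by less than 2-fold. With no scaling or with the arrays centred on added spike-in RNA, 2 of the 10 were at least 2-fold higher, where 995 and 825 of all genes were. With median scaling or normexp background correction 3 were, where 1340 and 960 of all genes were. The 10 genes were chosen with earlier results of these data known, so these shares are no test of the family. The probes of Dsg1b and Dsg1c may also share signal. The median log2 difference of the 10 genes was 0.58 (0.30 without scaling and 0.16 with spike-in centring), against 0.00 over all genes, whose quartiles were -0.26 and 0.32. The difference was above 0 for 8 of the 10 genes, where 50.21% of all genes with a difference or bound were. With spike-in centring it was above 0 for 5, where the median of all genes was -0.43. On the scale used here it was more than 2 errors from 0 for 7, and the share of all genes was not computed. With spike-in centring Dsc2 (0.33) and Dsc3 (-0.01) came within 2 errors of 0, and Dsg2 (-0.82) lay beyond.

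**Figure D1:**
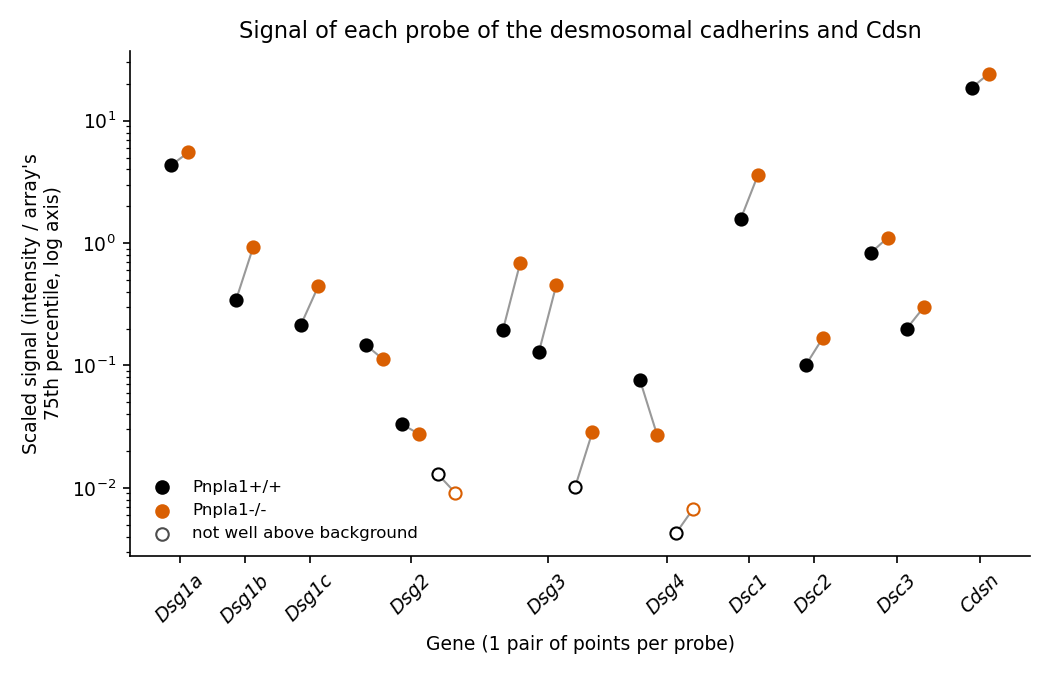
Scaled signal (intensity divided by the 75th percentile of the array, log axis) of each of the 16 probes in Pnpla1+/+ (black) and Pnpla1-/- skin (orange), 1 array each; open points were not well above background. Both brighter Dsg3 probes climb steeply while the brighter Dsg4 probe drops; heights are comparable within a probe, not between probes.

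Among the 3 copies of Dsg1, the differences were unequal. Dsg1a (chr18:20501268-20501327, mm9) read 9136 in wild-type skin and 9578 in knockout skin (log2 difference 0.35 ± 0.20), which turned to -0.08 when the arrays were centred on spike-in RNA. Dsg1b (chr18:20568117-20568176) went from 726.2 to 1627, 2.72-fold higher (1.45 ± 0.20). Dsg1c (chr18:20442142-20442201) went from 454.8 to 770.7, 2.06-fold higher (1.04 ± 0.20). The knockout value was the higher for all 3 copies on the scale used here, and Dsg1b and Dsg1c stood above Dsg1a by 1.10 and 0.69 on the log2 scale, each with an error of 0.29. The gap of 0.40 ± 0.29 between Dsg1b and Dsg1c was within 2 errors. Such gaps between probes on the same arrays do not move when an array is multiplied by another factor.

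The 3 genes are close copies, and the annotation of the Dsg1c probe also lists a transcript that the Dsg1b probe is assigned to, so its signal may come from both genes. The longest run of bases shared among the 60-base Dsg1 probes was 7. Over all 112 probe pairs from different genes of the family it was 9. These runs compare probes with each other and not with transcripts of the other copies, so they do not show that a probe is specific. Whether a probe also binds another copy, with or without mismatches, was not tested. Between the Dsg1c and Dsg1a probes lies a probe for an unnamed transcript (chr18:20459554-20459613), chosen after its values were seen, which read 33.6 in wild-type skin and 5.18 in knockout skin, below background in the latter and at least 1.27-fold lower there. The call of Dsg1c lay at the threshold, with a difference of 0.97 after scaling by the median, 0.98 after normexp background correction, 0.76 without scaling and 0.62 with spike-in centring.

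Dsg3, the desmoglein of the lower epidermal layers and of mucosa and the target of autoantibodies in pemphigus vulgaris, had the most positive difference of the 10 genes. Its brightest probe (chr18:20699734-20699793, mm9) read 410.3 in wild-type skin and 1194 in knockout skin, 3.54-fold higher (1.82 ± 0.21). A probe elsewhere in the gene (chr18:20698528-20698587) went from 272.7 to 784.2, a difference of 1.81 ± 0.21. The remaining probe was dim, at 21.3 in wild-type skin, where it did not clear background, and 49.2 in knockout skin, which made the knockout at least 2.50-fold higher. All 3 probes were higher in the knockout, and among all genes with a difference or bound 2.315% were at least as high as Dsg3. Under the 12 other processing settings its difference stayed between 1.40 and 1.92.

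Dsg4, which is needed for an intact hair shaft, was the only one of the 10 genes at least 2-fold lower. Its intensity at chr18:20630260-20630319 (mm9) was 161.1 in wild-type skin and 46.8 in knockout skin, 2.83-fold lower in the knockout (log2 difference -1.50 ± 0.28). The signal was low, and the call rested on this probe, since the other, at 8.97 and 11.7, did not clear background on either array. The difference was below 0 under all 12 other settings but shrank to -0.61 after normexp background correction, which adds an offset of 50 to both intensities, and to -0.42 when the probe below background was averaged in.

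Markers of the hair follicle were also lower in the knockout. Of 10 such genes, 9 were below 0 and 5 at least 2-fold lower (3.04% of all genes were), with a median of -0.96 that ranged from -1.38 to -0.89 over the other settings (9 at least 2-fold lower under spike-in centring, 8 without scaling and 3 after normexp, where 2147, 1424 and 321 of all genes were). The 5 were Krt27 (-1.10) and Krt28 (-1.23), keratins of the inner root sheath, Lhx2 (-1.28) and Hoxc13 (-1.01), transcription factors of the follicle, and Shh (-1.10), the signal that drives follicle growth. Their summed scaled signal over all 10 was 89.2 in wild-type skin and 46.4 in knockout skin, with the Krt71 probe the brightest and none of the 10 below background. Foxn1, at 0.52 ± 0.21, was the exception. In whole skin, fewer follicle cells and less RNA per cell cannot be told apart, and the part of the follicle in the difference of Dsg4 was not tested.

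Dsg2, the desmoglein of simple epithelia and heart, was the other member below 0. Its brightest probe (chr18:20761177-20761236, mm9) went from 310.2 in wild-type skin to 194.6 in knockout skin (log2 difference -0.39 ± 0.21). A dimmer probe went from 69.8 to 47.7, a difference of -0.27 ± 0.28, and the remaining one did not clear background on the 2 arrays. On this scale neither difference was more than 2 errors from 0, while that of the brightest probe was -0.46 after median scaling, -0.45 after quantile normalization, -0.67 without scaling and -0.82 under spike-in centring, all beyond 2 errors. A probe outside the 16, annotated as desmoglein 2 under a transcript name only, was also not well above background on either one. The 4 genes listed as markers of simple epithelium, whose source cells in skin were not measured, had a median of -0.46. Krt8 was at -0.84, Epcam at -0.08 and Krt18 at 0.27. Krt19, at -1.11, was the only one at least 2-fold lower on this scale (3.04% of all genes were). Without scaling or under spike-in centring 2 of the 4 were at least 2-fold lower, and after normexp 0 (1424, 2147 and 321 of all genes were). Their summed scaled signal was 1.40 in wild-type skin and 1.17 in knockout skin, the Epcam probe was the brightest and none was below background, and their part in the Dsg2 value was not tested.

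The desmocollins were all higher in knockout skin on the scale used here, although by unequal amounts and with Dsc3 at -0.01 under spike-in centring. Dsc1, which is paired with Dsg1 in the upper epidermis, read 3339 in wild-type skin and 6299 in knockout skin (chr18:20243332-20243391, mm9) and was 2.29-fold higher. Dsc2, the most widespread desmocollin, went from 211.9 to 293.4 (chr18:20189299-20189358), 1.68-fold higher (0.75 ± 0.21) and so short of a 2-fold call. The paper, whose microarray data these are, names both Dsc1 and Dsc2 among the up-regulated genes of adhesive structures. Dsc3, the desmocollin of the basal layers, went from 1752 to 1927 (chr18:20124142-20124201), a difference of 0.42 ± 0.20, the lowest of the 3.

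A second Dsc3 probe, whose mapped stretch spans 2118 bases of the genome and so crosses an intron, went from 421.4 to 521.4, a difference of 0.59 ± 0.21. Dsc1 stood 0.78 ± 0.29 above Dsc3 on the log2 scale, beyond 2 errors, while Dsc2 did not differ from either by more than 2 errors. Dsc1 kept its place at least 2-fold higher in 10 of the 12 other settings, the exceptions being no scaling (0.92) and spike-in centring (0.77).

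Corneodesmosin, the glycoprotein that marks the change from desmosome to corneodesmosome, read 39184 in wild-type skin and 42006 in knockout skin (chr17:35693799-35693858, mm9). The difference of 0.38 ± 0.20 was within 2 errors of 0 and turned to -0.04 under spike-in centring. Neither spot was saturated. Corneodesmosin differed less than Dsg3, Dsg1b, Dsg1c and Dsc1, by gaps of 1.44, 1.06, 0.66 and 0.82 on the log2 scale, each beyond 2 errors.

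**Figure D2:**
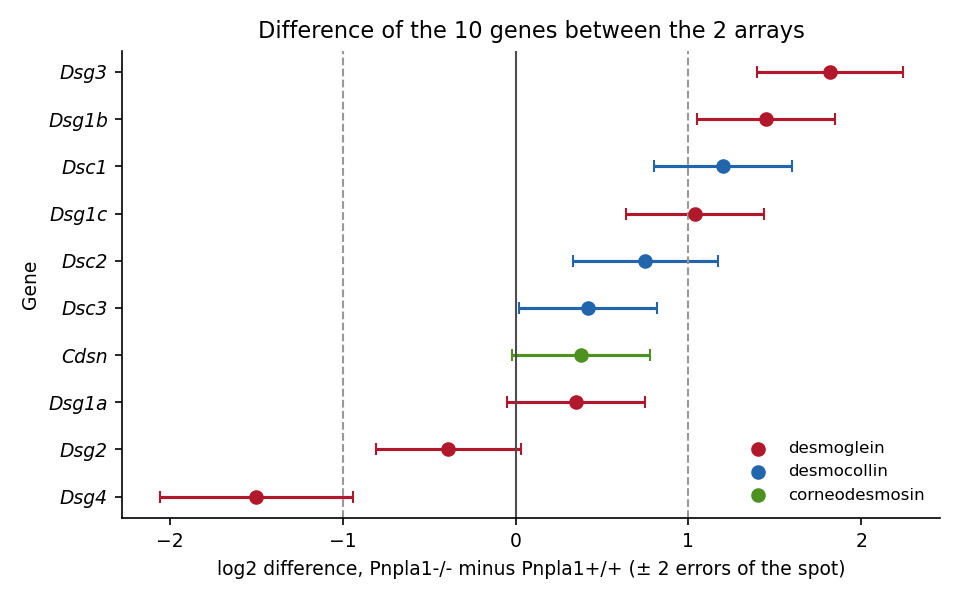
Log2 difference of each gene, Pnpla1-/- minus Pnpla1+/+, for its brightest probe, with bars of 2 errors of the spots; dashed lines mark 2-fold. Dsg3 at 1.82 and Dsg4 at -1.50 lie at the ends, and the bars of Dsg1a, Cdsn and Dsg2 cross 0.

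Ordered by difference, the genes ran Dsg3, Dsg1b, Dsc1, Dsg1c, Dsc2, Dsc3, Cdsn, Dsg1a, Dsg2 and Dsg4. Neighbours in this order from Dsg3 down to Dsg1a did not differ by more than 2 errors, whereas Dsg1a and Dsg2 were 0.74 ± 0.29 apart and Dsg2 and Dsg4 1.11 ± 0.35 apart. Over all 45 pairs, 33 differed by more than 2 errors, and the share for pairs of other genes was not computed. The errors count the spots alone and are assigned by the software. For bright spots they were a near-constant share of the intensity, 913.6 of 9135.8 for Dsg1a and 3918.4 of 39183.9 for Cdsn in wild-type skin. A limit of 2 errors is thus close to a fixed cut for such spots, and not a measured spread. For 305 probes printed in at least 8 spots, the median SD of a difference between single spots was 0.08 on the log2 scale. That was smaller than the software's errors of 0.20 to 0.28 for these genes.

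The 9 cadherin genes lie side by side on 1 chromosome, in the order Dsc3, Dsc2, Dsc1, Dsg1c, Dsg1a, Dsg1b, Dsg4, Dsg3 and Dsg2. Along it the differences were not ordered, since Dsg4 (-1.50) lies between Dsg1b (1.45) and Dsg3 (1.82), and Dsg1a (0.35) between Dsg1c (1.04) and Dsg1b. Next to the desmocollin end, Cdh2, the classical cadherin of nerve and muscle, had a difference of 0.12 ± 0.20, and Chst9 was not well above background. At the desmoglein end, Ttr was not well above background and B4galt6 was at -0.18 ± 0.21. No gene beside the cluster that could be measured reached 2-fold, where 6.68% of all genes were at least 2-fold higher and 3.04% lower.

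**Figure D3:**
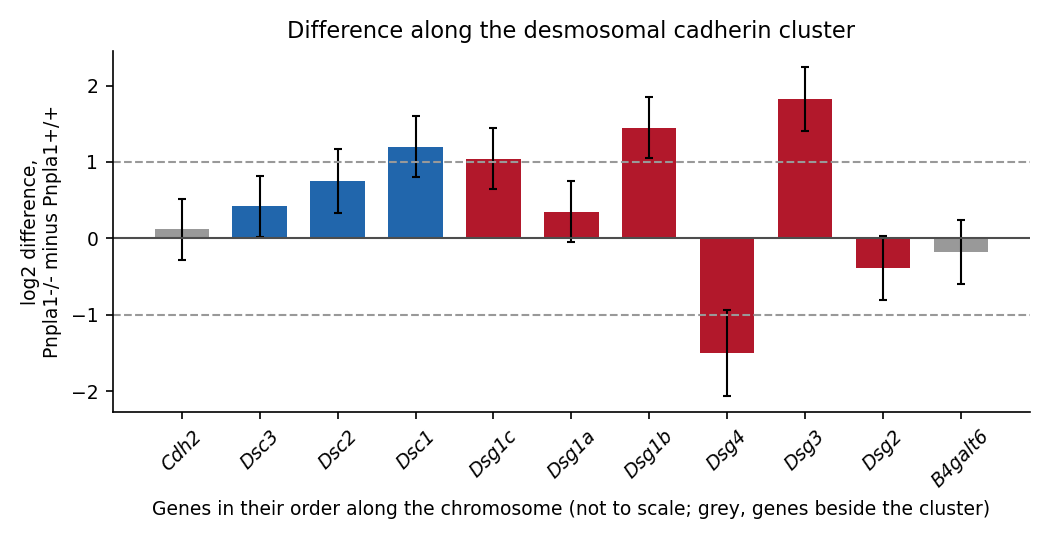
Log2 difference, Pnpla1-/- minus Pnpla1+/+, of the desmocollins (blue) and desmogleins (red) in their order along the chromosome, between the measured genes on each side (grey), with bars of 2 errors of the spots and dashed lines at 2-fold. Dsg4 drops to -1.50 between neighbours at 1.45 and 1.82, and both outer genes are near 0.

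Corneodesmosin lies apart from the cadherins, in a cluster of skin genes, and its nearest upstream neighbour differed far more. Psors1c2, a gene of the psoriasis susceptibility region, went from 3766 in wild-type skin to 43771 in knockout skin, 14.1-fold higher (3.82 ± 0.20). Cchcr1, the next gene on that side, was at -0.03 ± 0.20. On the other side, 2300002M23Rik was at least 1.80-fold higher, being above background only in the knockout, and Gm9573 was not well above background.

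The RefSeq promoter windows of Cdsn and Psors1c2, the 250 bases before each start site on the plus strand of chromosome 17 (build GRCm38.p6), are shown because these neighbours differed so unequally. Cdsn has 2 annotated starts. The windows were searched on both strands for the site of the Grainyhead-like factors, AACCGGTT, which reads the same on both, for the AP-1 site TGAGTCA and for the TATA box TATAAA. The TATA box of Psors1c2, in capitals, lies 29 bases before the start, and neither Cdsn window held any of the 3 motifs. Of all 32851 windows of this length, 12.4% held the TATA letters, 4.46% the AP-1 letters and 0.116% the Grainyhead-like letters. A match describes letters and not a bound site.
Psors1c2, chr17:35532951-35533200: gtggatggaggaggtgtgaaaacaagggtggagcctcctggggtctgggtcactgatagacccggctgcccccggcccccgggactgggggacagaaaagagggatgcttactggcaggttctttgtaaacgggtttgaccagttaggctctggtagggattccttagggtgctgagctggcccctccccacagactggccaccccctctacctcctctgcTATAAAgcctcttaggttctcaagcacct
Cdsn, first start, chr17:35542851-35543100: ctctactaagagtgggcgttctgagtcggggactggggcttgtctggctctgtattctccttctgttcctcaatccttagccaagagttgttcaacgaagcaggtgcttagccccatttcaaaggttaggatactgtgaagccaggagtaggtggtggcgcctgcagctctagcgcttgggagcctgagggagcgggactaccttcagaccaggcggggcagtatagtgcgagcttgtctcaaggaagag
Cdsn, second start, chr17:35551878-35552127: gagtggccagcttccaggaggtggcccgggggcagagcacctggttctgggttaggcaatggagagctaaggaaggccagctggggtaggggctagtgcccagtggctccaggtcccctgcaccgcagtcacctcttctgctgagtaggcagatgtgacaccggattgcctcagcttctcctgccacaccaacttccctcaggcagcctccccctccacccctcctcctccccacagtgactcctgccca

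Transcripts of 7 further proteins of the desmosome, most of them on its inner side, differed by less than 2-fold. None of the 7 genes reached 2-fold in either direction, where 6.68% of all genes were at least 2-fold higher and 3.04% lower. In lists of 4 to 10 genes a count of 0 is near those shares. Of the 7, 6 were above 0 (50.21% of all genes were), and the median was 0.37, which turned to -0.06 under spike-in centring. Jup, which encodes plakoglobin, had the largest difference and went from 396.2 in wild-type skin to 571.4 in knockout skin (0.81 ± 0.21). Dsp, which encodes desmoplakin, was at 0.52 ± 0.20, with 0.45 for its other probe, so that both genes were more than 2 errors from 0. Pkp2, the plakophilin of heart and simple epithelia, was the only one below 0, at -0.33 ± 0.21. Of the 4 plakin and scaffold genes of the cornified envelope none reached 2-fold, and the largest difference was that of Eppk1, epiplakin (-0.57 ± 0.20, and -0.53 for its other probe). Adherens junctions, the other cadherin-based contacts of keratinocytes, gave no gene of 10 past 2-fold, with a median of 0.25 (-0.18 under spike-in centring and -0.04 without scaling) and the adhesion receptor Nectin1 highest at 0.85 ± 0.20. Of the classical cadherins in that list, Cdh1 was at 0.31, Cdh3 at 0.28 and Cdh2 at 0.12.

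Proteases linked to corneodesmosomes, not all of which cleave them, were higher in many cases. Of 14, 8 were at least 2-fold higher (6.68% of all genes were) and none at least 2-fold lower, with a median log2 difference of 1.03, which ranged from 0.63 to 1.15 over the other settings. Under spike-in centring 4 of the 14 were at least 2-fold higher, without scaling 5 and with median scaling 6 (825, 995 and 1340 of all genes were). Klk7, the chymotrypsin-like kallikrein that cuts corneodesmosin, went from 9995 in wild-type skin to 17071 in knockout skin, 2.08-fold higher. Klk5, the trypsin-like kallikrein that activates it, went from 39791 to 26422, a difference of -0.31 ± 0.20. Klk6, another trypsin-like kallikrein, went from 490.1 to 20343, 50.5-fold higher (5.66 ± 0.20).

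Klk12 went from 37.2 to 2462 on its brighter probe (6.33 ± 0.28), and its other probe gave 3.73. Klk10 (1.87), Klk13 (1.86) and Klk11 (1.25) made up the other kallikreins past 2-fold. The lysosomal proteases Ctsc (1.33), which activates serine proteases, and Ctsd (1.01), which is active in the acid outer layers, were the rest. The calls of Klk7 and Ctsd lay at the threshold, and both were lost with median scaling, without scaling and under spike-in centring. Klk14 was above background only in the knockout, at least 1.215-fold higher.

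Inhibitors of these proteases were measured next, and most were under 2-fold. Of 9, Spink12 did not clear background. Of the other 8, 2 were at least 2-fold higher and none lower (6.68% and 3.04% of all genes were). Their median was 0.32 (-0.11 under spike-in centring). With median scaling, no scaling or spike-in centring, 1 was at least 2-fold higher (1340, 995 and 825 of all genes were). Wfdc12, a small secreted inhibitor, went from 260.5 to 3138, 14.7-fold higher (3.87 ± 0.21). Spint1, a membrane-bound inhibitor, went from 4344 to 7400, a difference of 1.05 ± 0.20. Spink5, which encodes LEKTI, the inhibitor of Klk5 and Klk7, was nearly equal on both arrays, 19120 and 19039, a difference of 0.28 ± 0.20 after scaling.

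Among the 10 keratins that desmosomes anchor, 4 were higher and 1 lower by at least 2-fold (6.68% and 3.04% of all genes were), with a median of 0.43 (0.01 under spike-in centring, 0.15 without scaling and 0.71 over the mean of all probes). Krt6b (7.20 ± 0.20), Krt6a (6.96 ± 0.21) and Krt16 (4.13 ± 0.20), keratins of wounded and hyperproliferative epidermis, had the largest differences, and Krt14, a keratin of the basal layer, was at 1.35 ± 0.20, a call lost under spike-in centring, where 3 of the 10 were higher. Krt15, a keratin of basal cells and of the follicle bulge, went from 82002 to 21178, 3.19-fold lower (-1.67 ± 0.20). Krt1 (0.10) and Krt10 (0.20), the suprabasal pair, were under 2-fold. The Krt6 genes are close copies, and their probes may share signal.

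**Figure D4:**
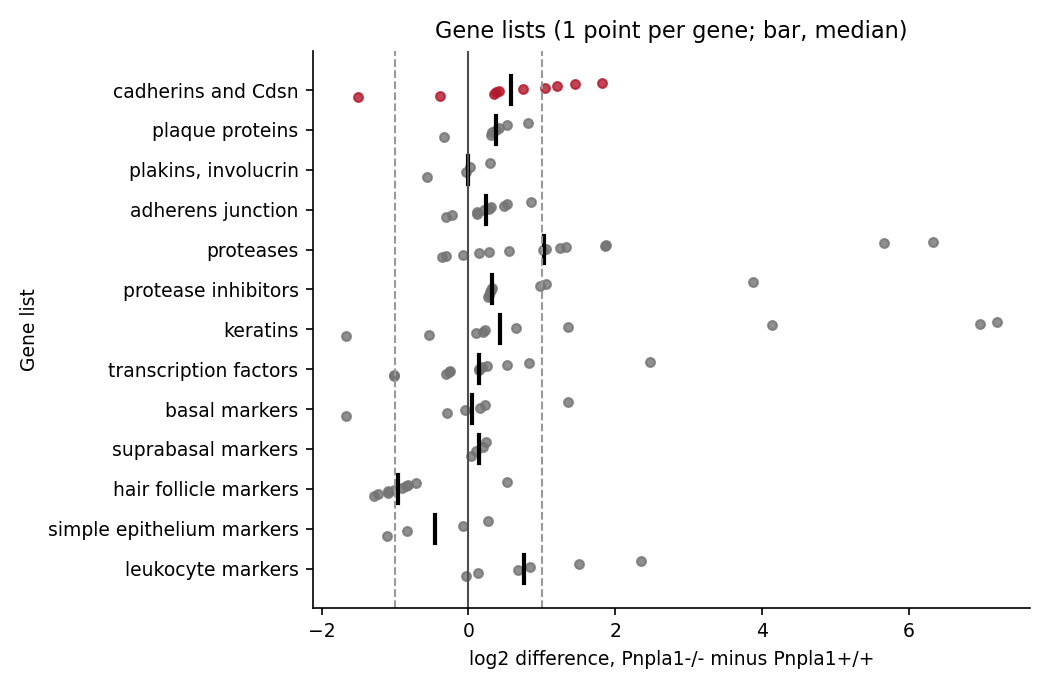
Log2 difference, Pnpla1-/- minus Pnpla1+/+, of each gene with a difference or bound (1 point per gene) in the 10 junction genes (red) and in lists of partners and markers (grey), with the median as a bar and dashed lines at 2-fold. Proteases have the highest median, 1.03, and hair follicle markers the lowest, -0.96.

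Among 12 transcription factors known to act on genes of the epidermal junctions or of the follicle, 1 was at least 2-fold higher and 2 were lower (6.68% and 3.04% of all genes were), with a median of 0.15 (-0.28 under spike-in centring and -0.14 without scaling). Both lower calls lay at the threshold, and 0 of the 12 were lower after cyclic loess and 1 after normexp or with the mean over all probes. Grhl3, a Grainyhead-like factor of barrier formation, went from 4689 to 21384, 5.54-fold higher (2.47 ± 0.20). Grhl1, known to act on Dsg1 genes, was at 0.15 ± 0.20. Hoxc13, a regulator of hair genes known to act on Dsg4, was at -1.01 ± 0.20, and Lef1, which acts in the follicle, was also at -1.01 ± 0.20.

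Markers of the epidermal layers had medians near 0. Basal keratinocyte markers had a median of 0.06 over 6 genes, with Krt14 past 2-fold upward, except under spike-in centring, and Krt15 downward, and their median ranged from -0.37 to 0.06 over the other settings. Suprabasal markers had a median of 0.15 over 4 genes, from 0.04 for Sbsn to 0.24 for Krtdap, and from -0.27 to 0.17 over the other settings. Their summed scaled signals were 191.5 and 222.1 for the basal and 353.6 and 393.2 for the suprabasal markers in wild-type and knockout skin, with the Krt5 and Krt10 probes the brightest and none below background. The part of these layers in the cadherin differences was not tested.

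The size of each difference moved with the scaling. Spike-in RNA, which is meant to be added in equal amount to each sample at labelling, was 0.43 higher on the log2 scale in Pnpla1-/- after the 75th percentile scaling (8 probes, from 0.30 to 0.49), so that centring on it lowered all differences by that amount. On that scale 2 of the 10 genes, Dsg3 (1.40) and Dsg1b (1.02), were at least 2-fold higher and Dsg4 (-1.93) lower, while the median of all genes was -0.43. The share of higher among all genes past 2-fold was then 27.76%, against 68.7% on the scale used here, 41.13% without scaling and 58.78% after quantile normalization. Scaling by 1 factor per array moves all genes alike, and the gaps between the 10 genes do not move with it.

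**Figure D5:**
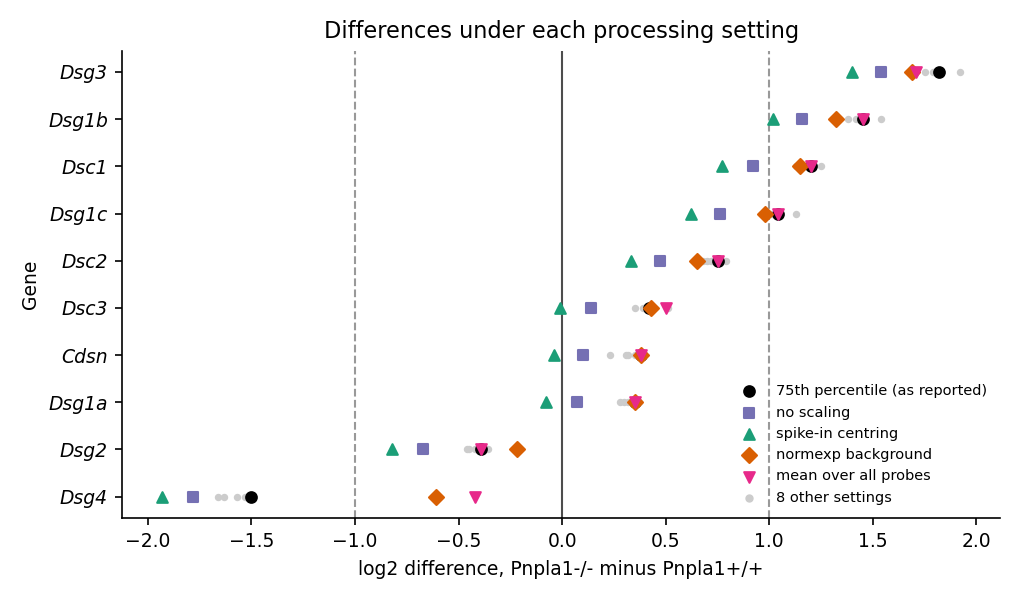
Log2 difference of the 10 genes, Pnpla1-/- minus Pnpla1+/+, as reported (black) and under 12 other processing settings (4 in colour, 8 in grey), with dashed lines at 2-fold. Dsg3 and Dsg1b stay beyond 2-fold throughout, Dsg1a, Dsc3 and Cdsn fall just below 0 under spike-in centring, and Dsg4 moves most.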

How the data were processed

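Total RNA of 2 pooled skin samples was measured, 1 array per genotype, both on the same slide, so spread between animals and batches could not be estimated. The authors scanned the arrays and read them with Agilent Feature Extraction 11.5.1.1 (submitters' processing notes). The deposited values of a spot are its processed intensity, linear, background-subtracted and detrended, the error of that intensity, the raw and background intensities, and other flags for outlier, saturated and dim spots. A deposited table of ratios, in which the authors divided each intensity by 2109 on the wild-type and 1734 on the knockout array, served as an alternative.

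From the intensities of 43020 spots other than controls, log2 values minus each array's 75th percentile were computed (numpy 2.4.6 and pandas 2.3.3 under Python 3.11.15). Outlier spots (138 and 82) were left out, repeated spots averaged, and a gene represented by its brightest probe. On the arrays 71.75% and 73.34% of spots were well above background and none was saturated. A probe well above background on 1 array gave a bound, against the higher of its own signal and the lowest signal above background (23.9 and 21.7). Called means at least 2-fold. R 4.3.3 with limma 3.58.1 gave quantile, cyclic loess and normexp values. Probe coordinates are the array annotation's on build mm9, for which no gene models were used, so exons are not given. Of 39429 probes, 31456 were matched to current names.

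Named genes are the members by every probe, each list gene past 2-fold or else the one with the largest difference, the 2 genes on each side of the cluster and of Cdsn, and Pnpla1. Other genes named were chosen after their values were seen. The members and lists were chosen with earlier results of these data known. Promoters are RefSeq's, with entries found for Cdsn and Psors1c2. A planned comparison of protein sequences was not run. Signals of different probes were not read as relative abundances, and summed signals of a list are weighted by its brightest probes.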

Additional observations from a re-analysis of the deposited data

How the results depend on the processing

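No paired analysis was possible because each genotype had 1 array, and no replicate could be left out. The median of the 10 genes stayed above 0 under all 12 other settings, from 0.16 to 0.65. As reported, 4 of the 10 were at least 2-fold higher and 1 lower, against 1495 and 681 of all genes and 17 and 8 genes of all lists. Without scaling, 2 were higher and their median was 0.30, and 995 of all genes were higher and 1424 lower. With spike-in centring, 2 were higher with a median of 0.16, 825 of all genes were higher and 2147 lower, and the lists had 11 higher and 13 lower. With normexp none of the 10 was lower (0), 960 of all genes were higher and 321 lower, and 5 list genes were lower. Averaging all probes left 0 of the 10 lower. Without a filter on dim probes, 3041 of all genes were higher and about 1.1e+03 lower. At 1.5-fold, 3078 of all genes were higher, 2092 lower and 13 list genes lower. At 3-fold, 1 of the 10 was higher and 0 lower, 681 of all genes were higher and 228 lower, and 10 list genes were higher and 1 lower. Dim probes limit Dsg4 and Dsg2, since signals near 24 in Pnpla1+/+ or 22 in Pnpla1-/- cannot be told from background.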

Other observations

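Markers of leukocytes had a median of 0.76 over 6 genes, 0.33 under spike-in centring and 1.03 with the mean over all probes. Of the 6, 2 were at least 2-fold higher in Pnpla1-/- skin (6.68% of all genes were). With the mean over all probes 3 were (1820 of all genes). Lyz2, the lysozyme of myeloid cells, went from 361.1 in wild-type skin to 1512 in the knockout, 5.09-fold higher (2.35 ± 0.21). Ptprc, which encodes the pan-leukocyte surface protein CD45, went from 232.1 to 542.2, 2.84-fold higher (1.51 ± 0.21). Cd3e, a marker of T cells, was at 0.13 ± 0.20. The probes of Itgam, an integrin of myeloid cells, disagreed, with -0.03 for the brightest and 1.14 and 2.84 for the others. The summed scaled signal of the 6 genes was 14.7 in Pnpla1+/+ and 20.9 in Pnpla1-/- skin, with the Csf1r probe the brightest and none below background.

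Other cell types of the skin gave no gene past 2-fold, where 6.68% of all genes were at least 2-fold higher and 3.04% lower. In lists of 3 to 6 genes a count of 0 is near those shares. The median log2 difference was -0.07 over 6 fibroblast markers, 0.05 over 6 muscle markers, 0.28 over 4 endothelial markers, 0.06 over 3 adipocyte markers and -0.38 over 5 melanocyte markers. The largest differences among the first 4 were those of Pdgfra (0.32), a growth factor receptor of fibroblasts, Myh3 (0.57), the embryonic myosin of muscle, Cdh5 (0.39), the endothelial cadherin, and Fabp4 (0.10), a fatty acid carrier of adipocytes. The melanocyte genes with the most negative values were Pmel (-0.44 ± 0.20), of the pigment granule, and Tyr (-0.42 ± 0.21), the enzyme of melanin synthesis, and Tyrp1 was at 0.12 ± 0.20. Under spike-in centring the fibroblast, muscle, endothelial, adipocyte and melanocyte medians were -0.49, -0.38, -0.15, -0.37 and -0.81.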
